A study of Homo sapiens with 7 samples.

Results

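The first siRNA against TEAD1 was followed over time in HepG2 cells through 4 of the 7 small RNA libraries of the study: 1 untreated library (0 h) and 1 library each at 24, 36 and 48 h after treatment with siRNA 1. All 2652 human mature miRNAs in the files were considered, and the 473 with a mean of at least 10 reads over these 4 libraries were described. HepG2 is an established line of hepatocellular carcinoma cells. The untreated cells are labelled WT and the treated cells as TEAD1 knockdown. The other 3 libraries come from cells given a second siRNA against TEAD1, and the question named by the study is which miRNAs depend on TEAD1.

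The labels name no library with a control siRNA, so the loss of TEAD1, the transfection itself and the time in culture cannot be told apart in this course. Each time point is 1 library, and nothing in the labels says that the libraries come from separate cultures. Any p-value below therefore measures only the spread between libraries. TEAD1 mRNA is not among the small RNAs counted, so the knockdown itself was not checked here.

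TEAD1 is a DNA-binding protein of the TEA domain family and a nuclear partner of YAP and TAZ, the coactivators that the Hippo pathway holds in check. A miRNA is cut from a hairpin, usually by Drosha and then Dicer, and either arm of the hairpin, 5p or 3p, can be loaded into an Argonaute protein. The seed, the bases near the 5′ end that pair with target mRNAs, largely decides which mRNAs are repressed, so miRNAs with the same seed form a family with shared targets.

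The sequences below carry the patterns described in the following paragraphs. They are the mature sequences given in the deposited files, each identical to the RefSeq entry of the same name (GRCh38.p14), as were all 426 of the 473 names that matched the RefSeq table. Each is written 5′ to 3′, with the seed (bases 2 to 8) in capitals. The first set had its lowest level at 48 h, and the last 2 of them share the seed AAAGUGC with miR-20a-5p, miR-20b-5p, miR-93-5p and miR-106a-5p:
miR-340-5p: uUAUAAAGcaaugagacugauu
miR-374a-3p: cUUAUCAGauuguauuguaauu
miR-101-3p: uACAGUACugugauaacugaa
miR-122-5p: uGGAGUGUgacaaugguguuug
miR-106b-5p: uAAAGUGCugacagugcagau
miR-17-5p: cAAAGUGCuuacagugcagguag

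The opposite arm of the miR-340 hairpin is shown because it did not share the low 48 h level, and the next 4 because they had their highest level at 48 h:
miR-340-3p: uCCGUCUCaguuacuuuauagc
miR-139-5p: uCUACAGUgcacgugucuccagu
miR-615-3p: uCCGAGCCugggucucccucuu
miR-7706: uGAAGCGCcugugcucugccgaga
miR-365a-5p: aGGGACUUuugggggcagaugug

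The next 3 lay on one side of untreated at every time, and the last 2 stood out in the 36 h library:
miR-7-5p: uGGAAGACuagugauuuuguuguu
miR-1246: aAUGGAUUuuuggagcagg
miR-12136: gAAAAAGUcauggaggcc
miR-1-3p: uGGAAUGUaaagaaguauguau
miR-143-3p: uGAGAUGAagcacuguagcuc

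The 6 sequences of the low 48 h set held between 22.7% (miR-374a-3p) and 47.8% (miR-17-5p) G and C. The 4 of the high 48 h set held between 52.2% (miR-139-5p) and 63.6% (miR-615-3p). That contrast recurred over all miRNAs at 48 h and is taken up again below.

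In the RefSeq table (GRCh38.p14), miR-340-5p lies at chr5:180015361-180015382 on the minus strand in an intron of RNF130. MiR-374a-3p lies at chrX:74287295-74287316 in an intron of the long non-coding RNA FTX, and miR-106b-5p at chr7:100094043-100094063 in an intron of MCM7, both on the minus strand. MiR-17-5p lies at chr13:91350618-91350640, plus strand, in an exon of MIR17HG. MiR-139-5p lies in an intron of PDE2A at chr11:72615102-72615124, minus strand, and miR-615-3p within HOXC4 and HOXC5 at chr12:54034010-54034031, plus strand. MiR-7-5p is produced from more than 1 gene, among them MIR7-1 at chr9:83969811-83969834, minus strand, within HNRNPK.

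The 4 libraries were of like size, with between 13937058 and 14308482 reads, but the part assigned to miRNAs was 43.1% in untreated cells and 26.5%, 13.4% and 15.2% at 24, 36 and 48 h, which left 6171851, 3739729, 1920832 and 2114050 miRNA reads. Levels are given in CPM, the reads of a miRNA per 1000000 miRNA reads, with library sizes adjusted by the TMM method, so they are shares of the miRNA pool. In bulk RNA, fewer cells of a kind and less RNA per cell cannot be told apart. A count of 0 allows up to 0.541 CPM in untreated cells and up to 0.856, 1.47 and 1.27 CPM at 24, 36 and 48 h (3 reads). With all reads of a library as the scale, the median log2 ratio to untreated was -0.64, -1.43 and -1.17 at the 3 times instead of -0.02, -0.03 and 0.00, so every higher or lower below is relative to the other miRNAs.

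The 36 h library stood apart by its content of miR-1-3p, which heart and skeletal muscle make in large amounts. MiR-1-3p measured 21.8 CPM in untreated cells and 20.0, 837 and 25.05 CPM at the 3 times. Its 1713 reads at 36 h set it 38.3-fold above untreated (95% exact interval for counting error 31.9 to 46.5), while the other 2 treated libraries lay within counting error of untreated. The summed level of the 7 muscle markers on the list was 23.3, 20.8, 850 and 27.6 CPM in the same order. Of the others, miR-206 was counted at 36 h alone, at 6.35 CPM, miR-133a-3p reached 2.44 CPM and miR-499a-5p 4.40 CPM there, and miR-133b, miR-208a-3p and miR-208b-3p were at 0 in all 4 libraries. Results that use the 36 h library are therefore given with and without it where it changes them.

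The mean of the 3 siRNA 1 libraries was first compared with the untreated library. No miRNA passed: edgeR's quasi-likelihood test called 0 of 473 (0%) at an adjusted p of 0.05, with 4 at an unadjusted p below 0.05 and a smallest adjusted p of 0.999. Limma-voom called 0 as well (4 unadjusted), and DESeq2 called 1 (0.211%), miR-1246. A linear trend over the hours also gave 0 of 473 (0%) in edgeR, with 20 unadjusted and a smallest adjusted p of 0.367. Limma-voom gave 0 (23 unadjusted) and DESeq2 called 2 (0.423%), miR-12136 and miR-7704. These fits leave 2 residual degrees of freedom. In the first fit the 3 times serve as replicates, so any course in time is part of the error. The lone untreated library is assumed to vary like them. In the trend, any departure from a straight line is part of the error. A lack of calls is therefore no evidence that levels stayed the same.

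The trend depended on which times entered it. Without the 36 h library edgeR called 17 miRNAs, 8 upward and 9 downward. Without the 48 h library it called 31, 16 upward and 15 downward, and among them were miR-1-3p and miR-143-3p, 2 miRNAs with their highest level at 36 h. Leaving out the 24 h library or the untreated library gave 0. MiR-7-5p and miR-1246 were among the calls of both shorter courses, each of which has 1 residual degree of freedom.

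Since edgeR called no miRNA in either test on the full course, the courses are described library by library, and a fold is given with an exact 95% interval that covers counting error only. The spread of the log2 ratios to untreated over the 473 miRNAs widened with time, with SDs of 0.56, 0.72 and 1.03 in order of time. At 24 h 11 miRNAs were at least 2-fold higher (2.33%) and 18 at least 2-fold lower (3.81%) than in untreated cells. At 36 h the numbers were 25 (5.29%) and 25 (5.29%), and at 48 h they were 45 (9.51%) and 76 (16.1%).

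**Figure D1:**
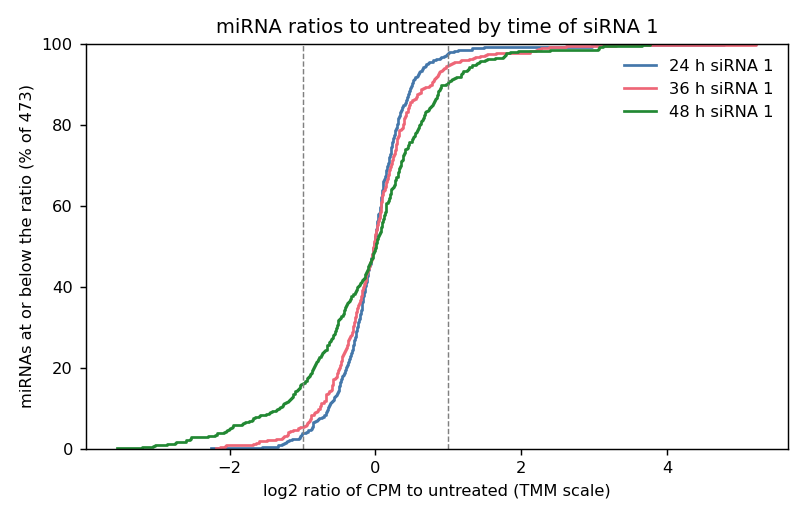
Cumulative share of the 473 miRNAs (y axis) against the log2 ratio of their CPM to the untreated library (x axis), 1 curve per time after siRNA 1. The 48 h curve is the flattest, with an SD of 1.03 against 0.56 at 24 h and 0.72 at 36 h.

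The counts were of like size when the 48 h library was set against the earlier times. Against 24 h it held 53 miRNAs at least 2-fold higher (11.2%) and 81 lower (17.1%), and against 36 h 61 higher (12.9%) and 78 lower (16.5%). Between 24 h and 36 h the numbers were 18 (3.81%) and 19 (4.02%), but 5 and 133 with all reads as the scale. Of the 76 miRNAs that were 2-fold lower at 48 h, 7 had been so at 24 or 36 h. Of the 45 that were higher, 14 had been so. Over all 473 miRNAs, 3.81% were 2-fold lower at 24 h and 5.29% at 36 h, and 2.33% and 5.29% were higher. The share over all miRNAs at either time was not computed.

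The miRNAs described first were picked for the widest margins of the 48 h library below the other 3. Most of them had stayed near untreated at both earlier times. MiR-340-5p measured 1124 CPM in untreated cells and 1072, 931 and 138 CPM at 24, 36 and 48 h. The first 3 libraries lay within a narrow band, and the last was 8.17-fold below untreated (7.30 to 9.16). MiR-374a-3p, from an intron of FTX, measured 969, 1191, 1028 and 145 CPM, or 6.69-fold lower at 48 h (5.998 to 7.49).

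MiR-101-3p, known for repressing the histone methyltransferase EZH2, measured 2956, 2837, 3367 and 440 CPM, which put the 48 h library 6.71-fold below untreated (6.30 to 7.16). MiR-542-3p, of the miR-424 and miR-503 cluster on the X chromosome, measured 124.6, 120.4, 113.8 and 10.2 CPM, or 12.2-fold lower at 48 h (8.15 to 19.2). MiR-122-5p, the most characteristic miRNA of hepatocytes, was scarce in these cells and scarcer still at 48 h. It measured 44.0, 31.1, 45.9 and 4.25 CPM, from 244 reads in untreated cells and 10 at 48 h, and the 48 h library was 10.4-fold below untreated (5.54 to 21.9). The separation of the 48 h library from the other 3 was well outside counting error for each of these 5. They were picked for that separation, so it is no separate evidence of a change at 48 h.

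Some rarer miRNAs reached 0 reads at 48 h. MiR-196a-3p had 22, 38, 17 and 0 reads in untreated cells and at 24, 36 and 48 h, and miR-580-3p had 24, 14, 13 and 0. With the limit of 1.27 CPM that 0 reads allow at 48 h, miR-196a-3p was below its untreated level of 3.97 CPM. Its partner arm miR-196a-5p was nearly level, at 579.9, 574.8, 508.4 and 568.5 CPM.

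The miRNAs highest at 48 h varied more among the first 3 libraries. MiR-139-5p, hosted by the phosphodiesterase gene PDE2A, measured 219.6 CPM in untreated cells and 156.1, 160.2 and 762.9 CPM after treatment, at 48 h 3.47-fold above untreated (3.23 to 3.74). MiR-615-3p, of the HOXC cluster, measured 183, 140, 182 and 565 CPM, or 3.09-fold higher at 48 h (2.85 to 3.36). MiR-7706, in the AKAP13 gene, measured 386, 257, 479 and 1201 CPM, or 3.11-fold higher (2.94 to 3.29), and its 24 h library was 1.86-fold below that of 36 h (1.70 to 2.04). In all 3 the 24 h library was the lowest of the 4, though for miR-139-5p it was close to the 36 h library. The courses thus dipped before the high 48 h level for which these miRNAs were picked.

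MiR-365a-5p, from the MIR193BHG transcript, measured 237, 231, 193 and 594 CPM, with a 48 h level 2.50-fold above untreated (2.32 to 2.70). MiR-1260b lay below untreated first and above it at 48 h. It measured 32.1, 6.28, 13.7 and 87.9 CPM in order of time, which was 5.11-fold lower than untreated at 24 h (3.27 to 8.36) and 2.74-fold higher at 48 h (2.23 to 3.36). It is a short sequence of uncertain origin, reported to resemble a tRNA fragment.

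**Figure D2:**
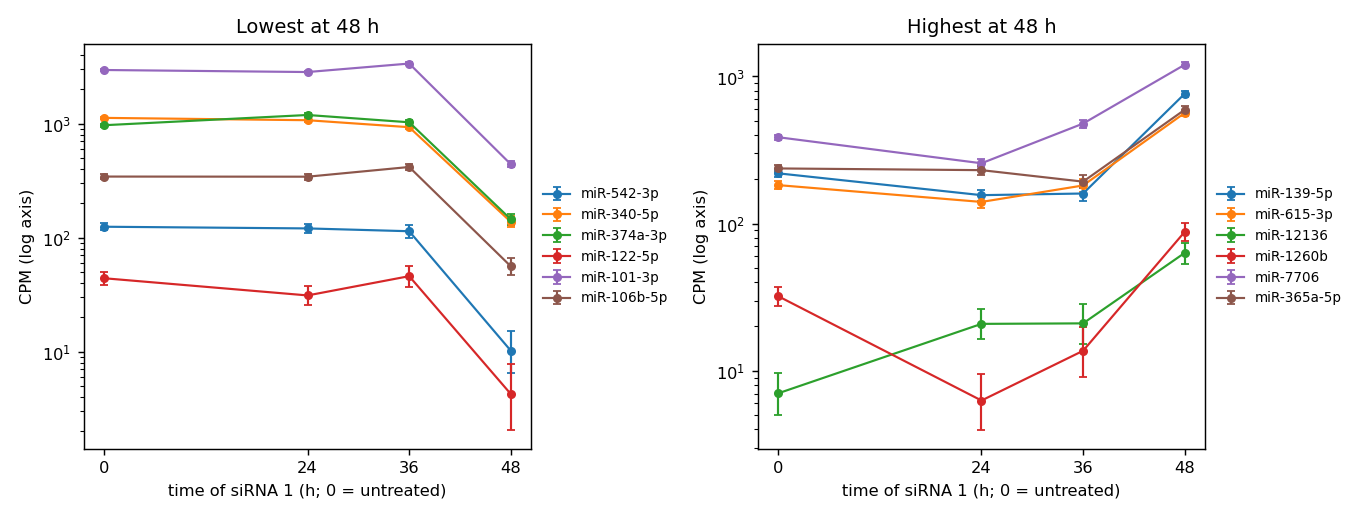
CPM (log axis) against hours after siRNA 1 for the miRNAs with the widest margins below (left) and above (right) the other 3 libraries at 48 h. Points are single libraries and bars are exact 95% intervals of the counts; the left lines stay close to level up to 36 h and drop at 48 h, as for miR-340-5p (931 to 138 CPM). On the right miR-139-5p goes from 160.2 to 762.9 CPM, while miR-1260b, miR-12136 and miR-7706 already vary before 36 h.

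The low 48 h levels were shared by members of some seed families and clusters. The counts of lower members given for them here and below stand against 16.1% of all 473 miRNAs 2-fold lower at 48 h. The 6 tested miRNAs with the seed AAAGUGC, which belong to the miR-17-92, miR-106a-363 and miR-106b-25 clusters and are known to target cell cycle inhibitors such as CDKN1A, had median log2 ratios of -0.06, -0.01 and -1.57 at 24, 36 and 48 h. At 48 h 5 of the 6 were at least 2-fold lower. MiR-20a-5p measured 3515, 3245, 3386 and 830 CPM, 4.23-fold lower at 48 h (4.04 to 4.44). MiR-17-5p measured 2441, 2030, 2313 and 973 CPM, or 2.51-fold lower (2.399 to 2.62), and miR-106b-5p 343, 342, 417 and 56.0 CPM, or 6.13-fold lower (5.13 to 7.37). MiR-93-5p, the remaining member, went from 1613 to 911.5 CPM.

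The miR-17-92 cluster is transcribed as 1 precursor from MIR17HG, a target of MYC. Its 9 tested products had median log2 ratios of -0.22, -0.05 and -1.33. At 48 h 5 of 9 were at least 2-fold lower with TMM, DESeq2 size factors or total counts as the scale. The number was also 5 with the GC trend removed. With all reads as the scale 7 of 9 were 2-fold lower, but so were 287 of all 473 miRNAs. Products of the same precursor did not keep together. At 48 h miR-18a-5p (55.7, 44.5, 54.7 and 11.9 CPM) and miR-19a-3p (142, 110, 88.9 and 24.2 CPM) were among the 5, while miR-92a-3p measured 14480, 15858, 14555 and 17671 CPM and miR-18a-3p 30.5, 26.0, 24.4 and 37.8 CPM. None of the 9 passed either test over the course.

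The 5 members of the miR-130, miR-301 and miR-454 family had a median of -1.14 at 48 h, with 3 at least 2-fold lower, a number that was 1 with total counts as the scale and 1 with the GC trend removed. MiR-301a-3p, whose host gene SKA2 serves in chromosome segregation, measured 37.33, 26.26, 39.56 and 8.915 CPM. Of the 4 tested miRNAs with the seed CUGGACU, the miR-378 family, 3 were at least 2-fold lower at 48 h and the median was -1.81. MiR-378c measured 61.49, 57.93, 60.07 and 15.28 CPM while the far more abundant miR-378a-3p, hosted by the energy regulator gene PPARGC1B, measured 3376, 3157, 4855 and 2639 CPM. Of the 6 tested products of the miR-424, miR-503, miR-542 and miR-450 cluster, 2 were at least 2-fold lower at 48 h, miR-542-3p and miR-424-5p (12.80, 18.55, 18.07 and 1.70 CPM, with 4 reads at 48 h).

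The 9 let-7 guide strands, which share the seed GAGGUAG and restrain growth genes such as HMGA2 and RAS, had medians of 0.18, -0.06 and 0.02, and none was 2-fold from untreated at any time. With all reads as the scale 8 of them were 2-fold lower at 48 h, as were most miRNAs. Within the family the members parted: let-7g-5p measured 41589, 43697, 30933 and 21240 CPM and let-7f-5p 128573, 141649, 97271 and 72829 CPM, while let-7a-5p measured 28602, 32395, 26436 and 28957 CPM and let-7b-5p 6651, 7993, 6394 and 8975 CPM. The 4 tested members of the miR-15 and miR-16 family (seed AGCAGCA) were above untreated at 24 and 36 h, with medians of 0.49 and 0.66, which were -0.15 and -0.75 with all reads as the scale. At 48 h their median was -0.33, and miR-424-5p was the member at least 2-fold lower. The 5 members of the group of miR-100, miR-99 and miR-125 had a median of 0.39 at 48 h and -0.81 with all reads as the scale, and none of its members was 2-fold from untreated on the TMM scale.

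The miR-30 family, which is abundant in differentiated epithelia, had 5 tested members with a median of -0.59 at 48 h. Only miR-30e-5p was 2-fold lower (704.2, 605.6, 615.3 and 312.0 CPM), 1 of 5, which is near the 16.1% of all miRNAs tested. MiR-27a-3p, of a cluster with miR-23a and miR-24, was 2.15-fold lower at 48 h (2.12 to 2.19), with levels of 15749, 19002, 15933 and 7320 CPM, and was less than 2-fold lower with total counts as the scale. The miR-200 family, which guards the epithelial state by repressing ZEB1, went the other way from low counts. Its 3 tested members had a median of 1.28 at 48 h, with 2 at least 2-fold higher, against 9.51% of all tested. Among these was miR-200b-3p with 34, 18, 11 and 37 reads. None of these passed a test over the course.

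Of the 7 miRNAs on a list linked to the Hippo pathway in the literature, 3 were at least 2-fold lower at 48 h, against 16.1% of all miRNAs tested, and 0 passed a test over the course. MiR-29b-3p, which restrains collagen genes, measured 374, 395, 550 and 154 CPM in order of time. MiR-130a-3p, reported to target the YAP antagonist VGLL4, measured 43.6, 41.7, 48.3 and 19.5 CPM. The third was miR-106b-5p. The list was chosen with results of these libraries known, and 1 of its 7 members was 2-fold lower when total counts set the scale or the GC trend was removed.

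The arms of a hairpin come from the same precursor, and their levels were compared within each hairpin. Both arms were tested for 117 hairpins. At 24 and 36 h 6 and 6 hairpins had 1 arm at least 2-fold lower than untreated, and at 48 h 30 had 1 such arm. Over all 473 miRNAs, 3.81%, 5.29% and 16.1% were 2-fold lower at 24, 36 and 48 h. How many such hairpins these shares would give for unrelated arms was not tested. The counts are therefore not read as a trait of the hairpins. Both arms were 2-fold lower in 0 hairpins at 24 h, in 1 at 36 h (miR-1247) and in 1 at 48 h (miR-374a). The median gap between the arms' log2 ratios was 0.30, 0.45 and 0.69 at the 3 times. Across hairpins the arms' ratios had a Pearson correlation of 0.12, 0.21 and 0.08 (n = 117), a description over points that share the same libraries.

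The miR-340 hairpin, with its sequences printed above, is an example of arms that parted at 48 h. While miR-340-5p had a log2 ratio of -3.02 at 48 h, miR-340-3p measured 89.6, 64.2, 46.4 and 112 CPM, a log2 ratio of 0.32. The 5p strand, by far the more abundant in untreated cells, was thus close to the 3p strand at 48 h. Arms of miR-671 parted in the same way, with miR-671-5p at 54.5, 41.7, 47.4 and 8.92 CPM and miR-671-3p at 48.0, 38.0, 43.0 and 65.8 CPM. MiR-106b-5p had a log2 ratio of -2.60, and miR-106b-3p measured 1955, 2080, 1744 and 1769 CPM.

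The miR-139 hairpin was the only 1 of the 117 with its arms 2-fold apart from untreated in opposite directions at 48 h. The 3p arm measured 4.33, 1.43, 3.42 and 1.70 CPM, from 4 reads at 48 h, against the high 5p arm. The arm that was lower at 48 h was the 5p in 16 hairpins and the 3p in 14. It was the less abundant arm in 19 of the 30, and held less G and C than its partner in 15, as much in 3 and more in 12.

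**Figure D3:**
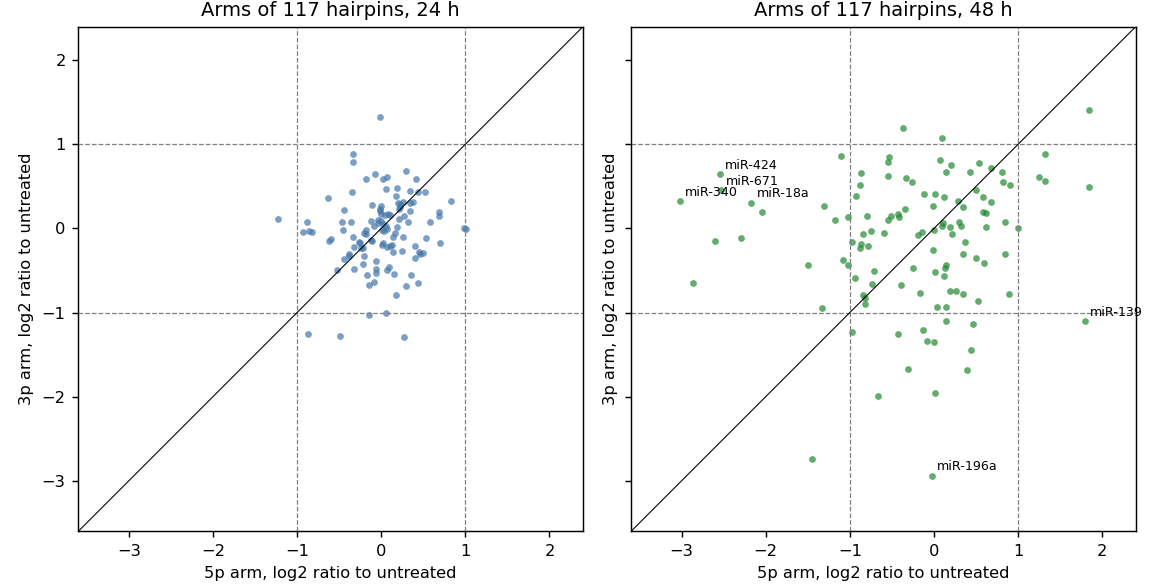
Log2 ratio to untreated of the 5p arm (x axis) against that of the 3p arm (y axis) for 117 hairpins, at 24 h (left) and 48 h (right), with 1 point per hairpin and dashed lines at 2-fold. At 48 h points spread along both axes rather than the diagonal, with miR-340 at -3.02 and 0.32.

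Base composition moved with the 48 h library. The 76 miRNAs at least 2-fold lower at 48 h had a median GC content of 40.9%, the 45 higher ones 52.4% and the remaining 352 a median of 50%. Of the 44 miRNAs with under 35% GC, 21 (47.7%) were 2-fold lower at 48 h, with a median log2 ratio of -0.83, and of the 57 with at least 65% GC, 5 (8.77%) were. Over the 473 miRNAs the Pearson correlation of GC content with the log2 ratio was -0.03, 0.04 and 0.34 in order of time, as a description over points that share libraries. When a linear GC trend was taken out of each library's ratios, an alternative chosen after seeing the data, 43 miRNAs were 2-fold higher and 71 lower at 48 h. Log2 ratios at 48 h then moved from -3.02 to -2.35 for miR-340-5p, from -2.74 to -1.93 for miR-374a-3p, from -2.75 to -2.25 for miR-101-3p and from -3.54 to -2.99 for miR-542-3p. The move was smaller for miR-122-5p (-3.20 to -3.06) and for miR-139-5p (1.79 to 1.74), and for miR-615-3p the value went from 1.63 to 1.24. The size of each move is set by the GC content of the miRNA alone. It therefore does not show how far GC content accounts for the value of any 1 miRNA.

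**Figure D4:**
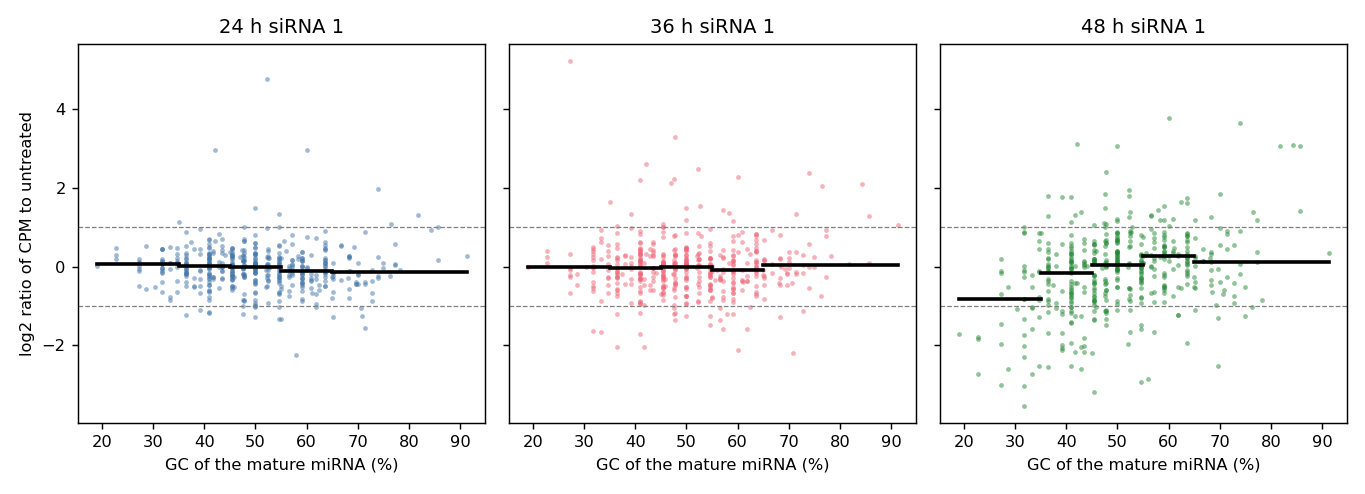
Log2 ratio to untreated (y axis) against GC content in percent (x axis) for the 473 miRNAs at 24, 36 and 48 h, with bars at the median of each GC range. The bars are near level at 24 and 36 h, and at 48 h the lowest range has a median of -0.83.

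MiRNAs that lay on one side of untreated throughout were 98 above (20.7%) and 97 below (20.5%). All 3 ratios share the same untreated library, so lying on the same side throughout is by itself no sign of an effect. Below untreated, the lowest unadjusted p belonged to miR-7-5p, a miRNA known to restrain EGFR signalling and made from the HNRNPK locus among others. It measured 62386 CPM in untreated cells and 34475, 19543 and 20589 CPM at 24, 36 and 48 h, or 1.81-, 3.19- and 3.03-fold lower. All 3 treated libraries lay well below untreated, and the siRNA 1 libraries averaged 24869 CPM with an SD of 8335 (n = 3 times). The group difference was -1.33 ± 0.38 on the log2 scale (SE), with an adjusted p of 0.999 in edgeR, and between -1.64 and -1.15 when any 1 treated library was left out. Its partner arm miR-7-1-3p measured 52.5, 39.7, 32.7 and 13.2 CPM.

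Others below untreated at all 3 times included miR-452-5p, of the GABRE gene on the X chromosome, at 2559, 1668, 1652 and 1262 CPM. MiR-941, a miRNA of recent human origin in the DNAJC5 gene, measured 3254, 2073, 1819 and 2232 CPM. These 2 were 2.03-fold (1.95 to 2.11) and 1.46-fold (1.41 to 1.503) below untreated at 48 h. MiR-24-2-5p (920, 510, 481 and 636 CPM), miR-548o-3p (228, 126, 124 and 149 CPM) and let-7a-3p (493, 285, 266 and 345 CPM) shared a form with the lowest level at 36 h. The guide arm let-7a-5p, given above, had no such course.

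On the other side, miR-1246 had 3.43 CPM in untreated cells, from 19 reads, and 30.8, 23.9 and 34.4 CPM at 24, 36 and 48 h. These were 8.996-fold (5.49 to 15.5), 6.98-fold (4.04 to 12.6) and 10.04-fold (6.03 to 17.5) above untreated. The high level was in place at the first time sampled and was level afterwards, at 29.7 ± 5.32 CPM (SD, n = 3 times). The log2 group difference was 3.10 ± 0.57 (SE), with an adjusted p of 0.999 in edgeR and 0.00147 in DESeq2. The sequence of miR-1246 printed above is found without mismatch in annotated copies of the U2 spliceosomal RNA, so a miRNA and a fragment of that RNA cannot be told apart by it.

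The sequence of miR-12136 matches a stretch of the mitochondrial serine tRNA gene MT-TS1 exactly. It measured 7.03 CPM in untreated cells, from 39 reads, and 20.8, 21.0 and 63.3 CPM at the 3 times, the last 8.99-fold above untreated (6.29 to 13.1). MiR-4485-3p, with an exact match in the mitochondrial ribosomal RNA MT-RNR2, had 3, 29, 10 and 35 reads, a ratio of 27.5 at 48 h (8.66 to 140). Of the 473 miRNAs, 7 had an exact match in an annotated structural RNA, and 3, 4 and 5 of these 7 were at least 2-fold higher at 24, 36 and 48 h, against 2.33%, 5.29% and 9.51% of all tested. None of the 7 was 2-fold lower at any time. With all reads as the scale, miR-1246 had log2 ratios of 2.41, 1.28 and 2.02 at the 3 times, and miR-12136 had 0.89, 0.14 and 1.92, so that miR-12136 was not 2-fold higher at 24 and 36 h on that scale.

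Only 6 miRNAs (1.27%) were at least 2-fold above untreated at all 3 times: miR-1246, miR-12136, miR-4485-3p, miR-10394-3p, miR-4516 and miR-9901. The last 3 rested on few reads, with untreated counts of 2, 17 and 7 and 48 h counts of 27, 21 and 35. Against these 6, no miRNA was 2-fold below untreated at all 3 times (0%). MiR-16-5p, which targets BCL2 and cyclins, was above untreated throughout at 668, 933, 1332 and 1047 CPM. MiR-6866-5p measured 20.9, 41.4, 41.5 and 72.2 CPM, miR-1296-5p 48.1, 70.5, 77.2 and 82.4, and miR-328-3p 15.7, 19.1, 27.8 and 38.6, each with its 4 values in the order of the sampling times.

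**Figure D5:**
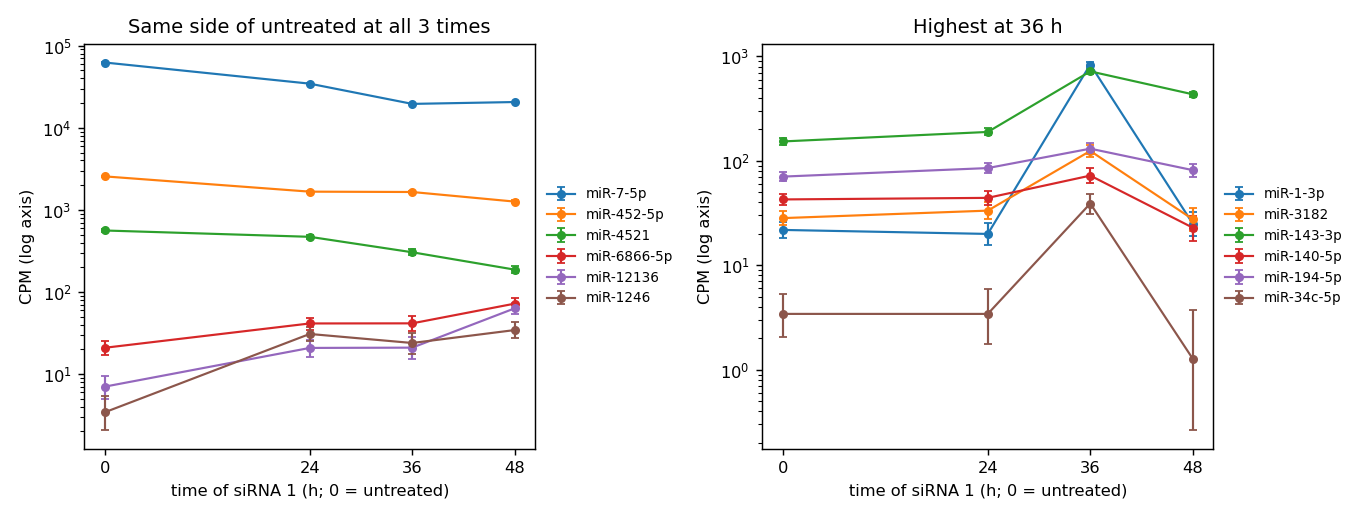
CPM (log axis) against hours after siRNA 1 for miRNAs on one side of untreated at all times (left) and for miRNAs highest at 36 h (right). Points are single libraries and bars exact 95% intervals of the counts. MiR-1246 is high from 24 h on, miR-7-5p is low from 24 h on, and miR-1-3p stands at 837 CPM at 36 h alone.

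A set of courses had values in the order of the sampling times, again with no trend past the test. MiR-4521, on chromosome 17, measured 561, 470, 305 and 187 CPM, a trend of -1.54 ± 0.46 (SE) on the log2 scale per 48 h. MiR-96-5p, which is clustered with miR-182 and miR-183, measured 1422, 1146, 1040 and 647 CPM. Let-7i-5p, among the most abundant miRNAs, measured 66638, 65926, 46549 and 38745 CPM, a trend of -0.81 ± 0.30. MiR-675-5p, cut from the imprinted RNA H19, measured 205, 150, 149 and 82.4 CPM, where 24 and 36 h were level.

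The most abundant miRNA, miR-21-5p, took 352044, 310308, 288704 and 284850 CPM in order of time. Its passenger arm miR-21-3p measured 675.5, 664.4, 642.2 and 211.0 CPM, a log2 ratio of -1.68 at 48 h, where that of miR-21-5p was -0.31. MiR-30a-5p measured 70787, 73829, 70780 and 47082 CPM. Against these, miR-99a-5p had 31242, 29466, 28598 and 57819 CPM and miR-100-5p 38683, 36903, 32799 and 50711 CPM, the highest level of each at 48 h.

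Apart from miR-1-3p, the 36 h library had the highest level of miR-143-3p, a miRNA of smooth muscle and fibroblasts from the CARMN transcript. It measured 153, 189, 719 and 434 CPM, 4.69-fold above untreated at 36 h (4.31 to 5.11) and 2.83-fold at 48 h. The group difference was 1.54 ± 0.81 on the log2 scale, and 1.05 without the 36 h library. MiR-3182 measured 28.3, 33.4, 124.5 and 27.6 CPM, 4.40-fold above untreated at 36 h (3.59 to 5.40). MiR-34c-5p, a p53-induced miRNA common in ciliated and germ cells and picked here after its values were seen, measured 3.43, 3.42, 39.1 and 1.27 CPM.

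At the other end, miR-1247-3p measured 35.5, 14.6, 7.33 and 23.3 CPM, 4.85-fold below untreated at 36 h (2.87 to 8.83), and miR-1278 37.9, 33.7, 11.7 and 34.4 CPM, 3.23-fold below (2.11 to 5.16). At 48 h both were nearer to untreated. Of the 25 miRNAs 2-fold higher at 36 h, 12 were so at 48 h, and of the 25 that were lower, 4. Over all 473 miRNAs, 9.51% were 2-fold higher and 16.1% 2-fold lower at 48 h. The ratios at both times share the untreated library.

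The 24 h library held the fewest such differences. MiR-221-3p, a miRNA that represses the cell cycle inhibitor CDKN1B, was highest there, at 3368 CPM in untreated cells and 5264, 3593 and 3786 CPM after treatment. MiR-148b-3p measured 5031, 7000, 5294 and 3173 CPM. MiR-197-3p was lowest there, at 139.8, 97.9, 153.8 and 256.4 CPM. MiR-492, picked after its values were seen, had 0, 55, 1 and 4 reads.

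The label of the cells was set against marker miRNAs. Of the 7 hepatocyte markers on the list, 4 were tested, with a summed level of 20328, 17365, 15542 and 20090 CPM, nearly all of it miR-148a-3p (17815, 15147, 13716 and 17025 CPM) and miR-192-5p (2398, 2102, 1649 and 2979 CPM). MiR-122-3p and miR-885-5p were at 0 in all 4 libraries, and miR-122-5p, the defining liver miRNA, was low in all 4. The fibroblast and endothelial markers summed to 448, 432, 1034 and 819 CPM over 8 names, of which 5 were tested, and none of them was at 0 in all libraries. The blood markers summed to 15.5, 15.7, 24.9 and 45.4 CPM, nearly all miR-451a of red cells (11.4, 12.3, 21.0 and 40.8 CPM), with miR-223-3p at 0 throughout. The neuron markers summed to 4932, 4654, 4159 and 8738 CPM, most of it miR-128-3p, which other tissues also express, at 3776, 3702, 3287 and 7563 CPM. The part of other cell types in the values at 36 and 48 h was not tested.

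The siRNA 1 libraries were last set against those of siRNA 2 at the same times. With time in the model, edgeR called 0 of 435 miRNAs (0%), with 6 at an unadjusted p below 0.05 and a smallest adjusted p of 0.992. DESeq2 and limma-voom called 0 as well, with 10 and 6 unadjusted. On a scale common to all 7 libraries, miR-340-5p measured 1102, 957 and 141 CPM at 24, 36 and 48 h of siRNA 1 and 852, 112 and 109 CPM with siRNA 2, a log2 difference of 1.204 ± 0.61 (SE, adjusted p 0.992 in edgeR).

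MiR-101-3p followed the same form, with 2918, 3462 and 453 CPM against 3330, 327 and 376. In these 2 the 36 h library of siRNA 1 was near its 24 h library, and that of siRNA 2 was near its 48 h library. MiR-615-3p gave the mirror image, with 144, 187 and 581 CPM against 200, 579 and 642, a difference of -0.76 ± 0.35. MiR-7706 measured 264, 492 and 1235 CPM against 544, 1412 and 1181, a difference of -0.85 ± 0.35.

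MiR-4521 was higher with siRNA 1 at each time, at 483, 313 and 193 CPM against 237, 255 and 107, a difference of 0.71 ± 0.27 with an adjusted p of 0.992 in edgeR. MiR-1-3p measured 20.5, 860 and 25.8 CPM with siRNA 1 and 27.8, 53.3 and 25.7 with siRNA 2. MiR-143-3p measured 195, 740 and 446 CPM against 163, 720 and 390. Of 56 named miRNAs, 0 had all 3 libraries of siRNA 1 on one side of untreated and all 3 of siRNA 2 on the other. Both courses were set against the same untreated library, and the 56 were chosen from these data. This count therefore cannot tell whether the siRNAs acted alike, and the share over all tested miRNAs was not computed.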

How the data were processed

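Small RNA libraries of 4 HepG2 samples were used: untreated, and siRNA 1 against TEAD1 at 24, 36 and 48 h (14088845, 14294889 and 13937058 reads), with the 3 siRNA 2 libraries for 1 comparison. Libraries were made with a NEBNext small RNA kit from total RNA, per the labels' protocols. The deposited values are whole-number read counts, 1 row for each mature miRNA name with its sequence. Aligner, counting tool and build: not given in the sources used here. The 5 summary lines of each file were kept out of library sizes; the line for reads with no feature held 56.9%, 73.5%, 86.6% and 84.8% of reads at 0, 24, 36 and 48 h. MiRNAs with a mean of at least 10 reads over the 4 libraries were kept (at least 99.9% of miRNA reads in each library). The miRNAs miR-199a-3p, miR-199b-3p, miR-365a-3p, miR-365b-3p and miR-519a-5p share a mature sequence with another entry, and their counts are uncertain.

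Counts were scaled by TMM and tested with edgeR 4.0.16 (quasi-likelihood, Benjamini-Hochberg adjusted p below 0.05) in R 4.3.3: siRNA 1 against untreated, a linear trend (log2 change per 48 h), and siRNA 1 against siRNA 2 with time as a factor. DESeq2 1.42.0, limma-voom 3.58.1, other scales (DESeq2 size factors, total miRNA counts, all reads), other count filters, a prior count of 0.5 in place of 2, fits of all 7 libraries and leaving out each library were alternatives. The script was tested on simulated data. Single-library folds are ratios of CPM with exact 95% binomial intervals; log2 ratios have a prior count of 2. Intervals and limits cover counting error only, as reads carry no molecular identifiers. At each time, miRNAs with a mean of at least 50 reads and the widest margin beyond the other 3 libraries were named, with the 8 lowest p-values per direction of each fit on one side of untreated, the 3 per direction of the siRNA comparison, the 10 most abundant, and list members as examples. Members, lists and tests were chosen with earlier results of these data known. GC content, shared seeds and matches to structural RNAs (GENCODE v29 transcripts) were computed from the deposited sequences.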

Additional observations from a re-analysis of the deposited data

Results flagged for a closer look

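The reads that were given to no annotated feature lie outside the miRNA comparisons. They made up 56.9% of all reads in the untreated library and 73.5%, 86.6% and 84.8% in the siRNA 1 libraries at 24, 36 and 48 h, above the untreated level each time. What these reads are was not tested.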

How the results depend on the processing

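Calls over the full course depended on the tool and filter. Against untreated, edgeR called 0 miRNAs, DESeq2 1, and edgeR without a count filter 3 (miR-1-3p, miR-492 and miR-1246). The trend gave 0 in edgeR, 2 in DESeq2, 13 without a count filter (11 higher, 2 lower), 95 with all reads as the scale (1 higher, 94 lower), and from 0 to 31 when a library was left out (17 without the 36 h library, 31 without the 48 h library). The numbers of miRNAs 2-fold higher and lower than untreated, as given above, became 4 and 98 at 24 h, 6 and 374 at 36 h and 9 and 287 at 48 h with all reads as the scale, and 24 and 137 for 48 h against 24 h and 5 and 133 for 36 h against 24 h. With total miRNA counts as the scale they were 47 and 15 at 36 h, 79 and 51 at 48 h, 95 and 56 for 48 h against 24 h, and 29 and 13 for 36 h against 24 h. With a mean count of at least 50 they were 3 and 3, 8 and 8, 17 and 39, and 20 and 44 in the same order of 4 comparisons, and without a count filter 40 and 65, 84 and 89, 132 and 187, and 161 and 154. For 36 h against 24 h and 48 h against 36 h they were 4 and 3, and 30 and 45, with that minimum, and 100 and 66, and 173 and 200, without a filter. All other settings left these counts within 1.5 times. With all reads as the scale the log2 difference from untreated turned to -0.373 for miR-16-5p, -0.397 for miR-1296-5p, -0.376 for miR-324-5p and -0.256 for miR-328-3p, and the trend to -0.573 for miR-16-5p, -0.458 for miR-324-5p and -0.05 for miR-328-3p. The cause was not tested. With the siRNA number as a replicate block over all 7 libraries and time as a factor, 0 miRNAs were called (10 at an unadjusted p below 0.05); the number marks a siRNA, not a shared culture. Depth limits the rarest miRNAs, since 3 reads are 0.541 CPM in untreated cells and 1.47 CPM at 36 h.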
